A study of Mus musculus with 12 samples.

Results

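The genes described are 10 that encode proteins the hepatocyte secretes into plasma: albumin (Alb), transthyretin (Ttr), the apolipoproteins Apoa1, Apoa2, Apob, Apoc1, Apoc3, Apoe and Apoh, and the alpha-1-antitrypsin copy Serpina1c. They were found by matching the Ensembl IDs of the count table to these symbols, and all 10 of 10 were present among 56923 IDs. Hepatocytes make most plasma proteins, passing them through the endoplasmic reticulum and Golgi into the blood, and their messenger RNAs are among the most abundant of the liver. Apolipoproteins wrap lipid: Apob is the non-exchangeable backbone of very-low-density lipoprotein, Apoa1 and Apoa2 are the main proteins of high-density lipoprotein, and Apoc1, Apoc3 and Apoe move between particles and govern their breakdown and uptake. Loss of these transcripts is a familiar sign of hepatocyte injury, and carbon tetrachloride, the agent used here, is turned by cytochrome P450 in hepatocytes into a radical that injures them.

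All 12 C57BL/6J wild-type mice received carbon tetrachloride, 200 µL of a 7.5% solution in olive oil by intraperitoneal injection, given 2 times a week for 6 weeks from the age of 6 weeks, so no uninjured liver stands behind any value. Curcumin, a polyphenol of turmeric, was gavaged daily for 2 weeks at a low dose of 25 mg/kg in 3 mice, at a medium dose of 50 mg/kg in 3 and at a high dose of 100 mg/kg in 3, and the 3 control mice had the injections without curcumin. Whether controls were gavaged with vehicle is not stated in the labels; mice were housed 3 to a cage, and cage and group may coincide. The labels call the 3 mice of a group biological replicates.

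Bulk RNA sequencing of whole liver gave 36015134 to 70376474 counts per library. Transcripts of the mitochondrial genome held 30.3% to 64.7% of all counts, and 11 near-identical nuclear copies of them another 10.9% to 23.3%, so that 5180318 to 36377767 counts remained per library for all other genes. Mitochondrial transcripts made up 58.6%, 60.9% and 64.2% of counts in the control livers, 63.7%, 64.1% and 43.0% in the low-dose livers, 48.3%, 55.5% and 60.2% in the medium-dose livers and 30.3%, 64.7% and 42.1% in the high-dose livers. No control library lay below 58.6%, so the share and curcumin treatment partly coincide. Levels are therefore given as CPM (counts scaled to a total of 1000000 per library) in both ways: of all counts, and of the counts left when mitochondrial genes and their copies are taken out. In bulk tissue, fewer cells of a type and less RNA per cell cannot be told apart.

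The 10 genes together took 6.30%, 3.93% and 3.26% of the non-mitochondrial counts in control livers, 3.62%, 2.62% and 15.3% in low-dose livers, 12.6%, 5.23% and 3.80% in medium-dose livers and 18.5%, 2.51% and 14.3% in high-dose livers. Low replicate 3, medium replicate 1 and high replicates 1 and 3 were thus the highest, and the other 2 low-dose livers and high replicate 2 lay within or below the control range. Of all counts, the 10 genes took 1.34%, 0.713% and 0.477% in control livers, 0.472%, 0.348% and 6.47% in low-dose livers, 4.47%, 1.31% and 0.743% in medium-dose livers and 10.9%, 0.326% and 6.26% in high-dose livers. Wilson 95% intervals of the non-mitochondrial shares were at most 0.0173 percentage points to either side. Such intervals cover counting error only, so the differences between mice of a group are far larger than counting error. Alb alone supplied 50.3% to 62.8% of the 10 genes' counts in every library, and Apob 1.05% to 6.61%.

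Per kilobase of transcript, the measure by which genes can be compared with each other, Alb averaged 21671 ± 16378 non-mitochondrial CPM per kb over the 12 libraries (SD). It ranked 1 of 21858 protein-coding genes in each of the 12 libraries. Apoc1 followed at 9528 ± 6948, Apoa2 at 9465 ± 9663 and Apoa1 at 7233 ± 5689 CPM per kb. Among the 10 genes, these 3 lay between ranks 2 and 5 from library to library. Apoc3 averaged 4139 ± 3762, Apoe 3915 ± 3231, Ttr 2465 ± 2505 and Serpina1c 1437 ± 668 CPM per kb. Apoh, at 649 ± 469, was rank 9 of the 10 and Apob, at 128 ± 16.6 CPM per kb, rank 10 in all 12 libraries. Serpina1c over Apoh and Apoh over Apob differed by more than the larger of their SDs, and the other 7 steps between neighbours in this order did not.

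The proximal promoters of Alb, Serpina1c and Apob, the most abundant of the 10 genes and the pair that moved least with the mitochondrial share in the values below, are printed to show what lies upstream of each start. They are RefSeq sequences on GRCm38.p6, and 7 of the 10 genes had an entry in the table used. Capitals mark every match to 4 motifs: GTTAAT (the core of the HNF1 site, both strands), CAAAGTCC (an HNF4 core, both strands), CCAAT (both strands) and TATAAA (forward strand only). Of 32851 promoter windows in the same table, 6.43% held GTTAAT, 1.2% CAAAGTCC, 33.8% CCAAT and 7.59% TATAAA. Positions count back from the RefSeq start.
Alb, chr5:90460620-90460869, plus strand: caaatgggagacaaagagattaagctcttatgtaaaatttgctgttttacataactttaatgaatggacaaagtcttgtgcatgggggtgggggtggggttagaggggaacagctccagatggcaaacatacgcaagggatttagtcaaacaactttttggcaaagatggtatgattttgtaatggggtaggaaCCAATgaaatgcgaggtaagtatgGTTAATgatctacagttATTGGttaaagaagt
Serpina1c, chr12:103904951-103905200, minus strand: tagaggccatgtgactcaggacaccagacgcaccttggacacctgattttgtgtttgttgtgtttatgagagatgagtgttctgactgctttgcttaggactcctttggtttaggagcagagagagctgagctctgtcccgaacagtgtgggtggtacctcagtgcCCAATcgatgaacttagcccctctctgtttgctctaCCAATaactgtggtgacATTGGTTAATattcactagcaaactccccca
Apob, chr12:7977427-7977647, plus strand: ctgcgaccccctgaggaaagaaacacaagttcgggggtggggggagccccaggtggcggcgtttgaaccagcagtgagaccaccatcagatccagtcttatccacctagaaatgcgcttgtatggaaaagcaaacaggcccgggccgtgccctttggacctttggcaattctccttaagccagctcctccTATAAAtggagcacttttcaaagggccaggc
The Alb window held GTTAAT at -32 to -27 and CCAAT at -56 to -52 and, on the other strand, -15 to -11. Serpina1c held GTTAAT at -27 to -22 and CCAAT at -84 to -80, at -48 to -44 and, on the other strand, at -31 to -27, where 1 base is shared with the GTTAAT match. The Apob window was ended at the start of the GENCODE M21 gene model, which lies upstream of the RefSeq start, and held 1 match, TATAAA at -60 to -55 from the RefSeq start. These matches are letters in a window and were not tested as binding sites.

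Albumin sets the oncotic pressure of plasma and carries fatty acids, bilirubin and drugs. Alb had 39606, 22712 and 16403 CPM in control livers, 19578, 13463 and 89126 CPM in low-dose livers, 75260.5, 30694 and 22681.5 CPM in medium-dose livers and 100702, 13810.0 and 84904 CPM in high-dose livers, without mitochondrial counts. High replicate 1, low replicate 3, high replicate 3 and medium replicate 1 were above every control liver, and low replicates 1 and 2 and high replicate 2 were within or below the control range. Group means were 40722 ± 42030.5 CPM at the low, 42879 ± 28328 CPM at the medium and 66472 ± 46285 CPM at the high dose, against 26240.4 ± 11997 CPM in control livers (SD, n = 3 each), so that the SD of the low-dose group was as large as its mean. Of all counts, Alb had 8401, 4124 and 2401 CPM in control livers, 2551, 1788 and 37556 CPM in low-dose livers, 26758, 7694 and 4435 CPM in medium-dose livers and 59221, 1795 and 37065 CPM in high-dose livers. The order of the livers was nearly the same, but the span from lowest to highest library was 33.1-fold with mitochondrial counts in the scaling and 7.48-fold without them.

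Transthyretin carries thyroxine and, bound to retinol-binding protein, vitamin A. Ttr had 1410.1, 1190.3 and 1190.0 CPM in control livers, 1054, 929.9 and 6298 CPM in low-dose livers, 4491, 1265 and 1042 CPM in medium-dose livers and 10107, 866 and 5236 CPM in high-dose livers, without mitochondrial counts. The 3 control livers lay close together, and 4 of the 9 curcumin livers stood far above them while low replicates 1 and 2, medium replicate 3 and high replicate 2 stood below all 3. Its span over the 12 libraries was 11.7-fold, or 52.8-fold with mitochondrial counts in the scaling.

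The levels that follow are also without mitochondrial counts unless stated. Apoa1, which activates the cholesterol-esterifying enzyme of plasma and accepts cholesterol from cells, had 4757, 2758 and 4435 CPM in control livers, 2864, 2573 and 16272 CPM in low-dose livers, 11025, 6019 and 3584 CPM in medium-dose livers and 15123.5, 2579.5 and 17842 CPM in high-dose livers. Apoa2, its partner on high-density lipoprotein, had 2959, 1580.0 and 1629 CPM in control livers, 1842, 1366 and 11119 CPM in low-dose livers, 8452, 2504 and 1496 CPM in medium-dose livers and 16556.5, 1226 and 8108 CPM in high-dose livers. Low replicate 3, medium replicate 1 and high replicates 1 and 3 were above all controls for both genes, as was medium replicate 2 for Apoa1, and in every curcumin group at least 1 liver was below at least 1 control. Apoa2 spanned 13.5-fold without mitochondrial counts, the widest of the 10 genes, and 61.1-fold with them. Apoa1 spanned 6.93-fold and 26.5-fold.

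**Figure D1:**
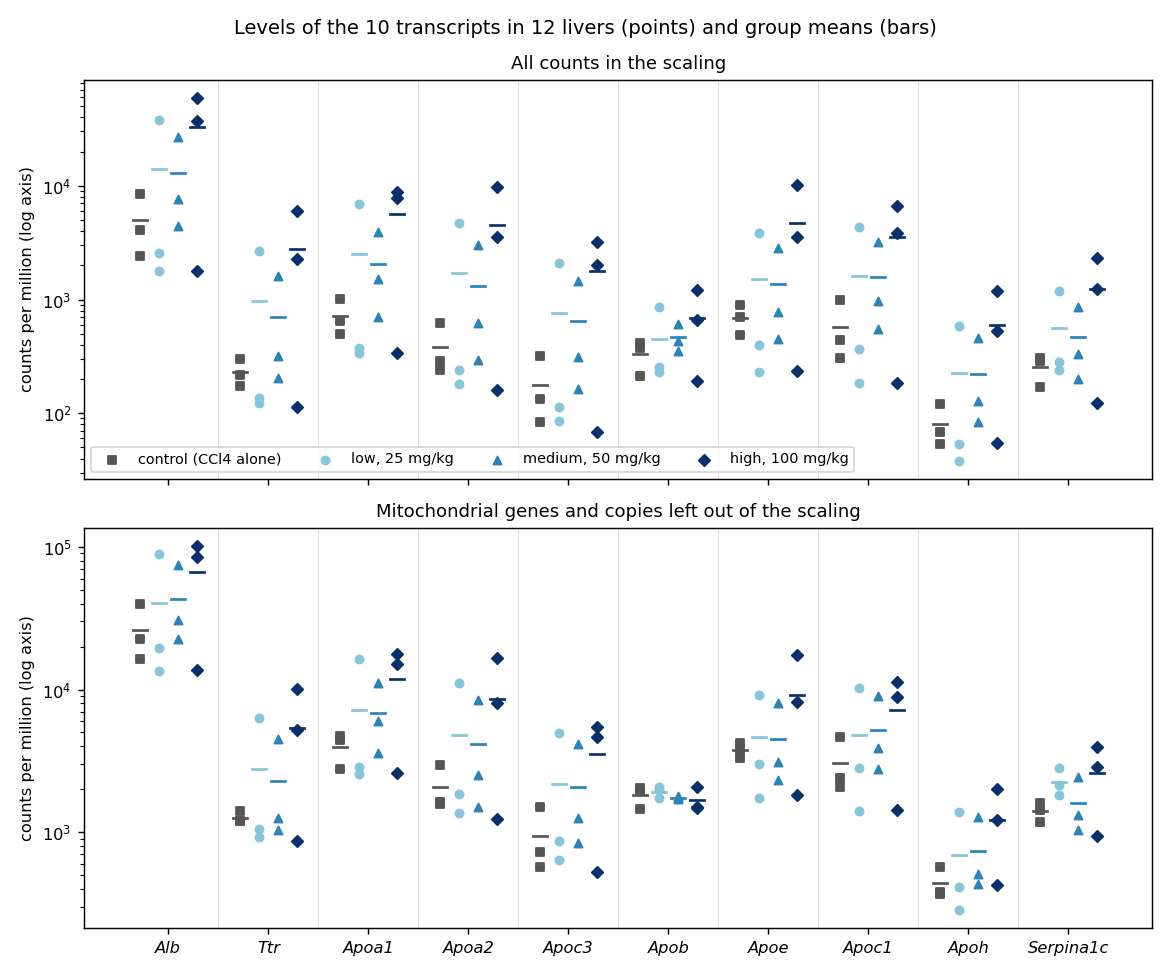
CPM (log axis) of the 10 genes in the 12 livers, with all counts in the scaling in the upper panel and without mitochondrial genes and copies in the lower, by group from control to high dose; points are mice and bars are group means. In the lower panel high replicates 1 and 3 stand above all control points and high replicate 2 below the control mean for 9 genes, while Apob stays at 1449.95 to 2066 CPM.

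Apoc1, an inhibitor of lipoprotein uptake, had 4632, 2415 and 2072 CPM in control livers, 2804, 1395 and 10219.5 CPM in low-dose livers, 8972, 3909 and 2789.9 CPM in medium-dose livers and 11370.4, 1423 and 8827 CPM in high-dose livers. Apoc3, which inhibits lipoprotein lipase and raises plasma triglyceride, had 1503, 729.8 and 574 CPM in control livers, 863, 637 and 4986 CPM in low-dose livers, 4121, 1251 and 842 CPM in medium-dose livers and 5472, 525 and 4618 CPM in high-dose livers. The 4 livers above all controls were the same for these 2 short transcripts as for Alb. Apoe is the ligand by which remnant particles enter hepatocytes and is made by macrophages as well as hepatocytes. It had 4219, 3857 and 3299 CPM in control livers, 3026, 1722 and 9213 CPM in low-dose livers, 8022, 3106 and 2310.0 CPM in medium-dose livers and 17384, 1812 and 8173 CPM in high-dose livers. In Apoe the control livers were closer to each other than in Apoc3, and low replicates 1 and 2, medium replicates 2 and 3 and high replicate 2 lay below all 3 of them.

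Apob had 1943.5, 2047 and 1450.0 CPM in control livers, 1972, 1734 and 2057 CPM in low-dose livers, 1729, 1708 and 1802 CPM in medium-dose livers and 2066, 1469.6 and 1502 CPM in high-dose livers. Its 12 values overlapped in all groups, and the whole span was 1.42-fold, the narrowest of the 10. Group means were 1921 ± 167 CPM at the low, 1747 ± 49.5 CPM at the medium and 1679 ± 335 CPM at the high dose, against 1814 ± 319 CPM in control livers (SD, n = 3 each). With mitochondrial counts in the scaling the span of Apob became 6.36-fold.

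Apoh, or beta-2-glycoprotein I, binds anionic phospholipid. It had 566, 377 and 369 CPM in control livers, 412, 285 and 1378 CPM in low-dose livers, 1277.5, 509 and 431 CPM in medium-dose livers and 2022, 424 and 1223 CPM in high-dose livers. Its lowest count in any library was 2132, the lowest of any of the 10 genes. Counting error at that count is 4.24% to either side at 95% confidence, so none of these levels is limited by depth. Serpina1c, one of the copies that mice have of the neutrophil elastase inhibitor gene, had 1429, 1598 and 1172 CPM in control livers, 1824, 2125 and 2803 CPM in low-dose livers, 2428, 1318 and 1029 CPM in medium-dose livers and 3947, 938 and 2856 CPM in high-dose livers. All 3 low-dose livers were above all 3 control livers, which was not so at the medium or high dose. In the TMM-scaled CPM used below, 7.41% of all genes were higher without overlap at the low dose. The nearly identical copy Serpina1a did overlap, with 2063 CPM in low replicate 1 against 2120 CPM in control replicate 2.

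Reads of Serpina1c cannot be fully assigned: its transcript is 98.6% identical to that of Serpina1a, and 96.4% to 96.9% identical to those of Serpina1b, Serpina1d and Serpina1e, and the counting of reads that fit several genes is not described in the sources used here. Serpina1c also overlaps exons of the antisense gene B430119L08Rik, and Apoh those of Prkca on the opposite strand. Without the strand setting of the counting, such reads cannot be told apart. The other 9 genes had no transcript of another gene at 85% identity or more over 100 bases. Apoa1 and Apoc3 are both on chromosome 9, Apoc1 and Apoe on 7, and Apob and Serpina1c on 12, while Alb lies on 5, Ttr on 18, Apoa2 on 1 and Apoh on 11.

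In low-dose livers all 10 genes had a positive log2 fold change over control livers and none passed the test, edgeR's quasi-likelihood test on the counts with TMM scaling, which was used for each dose. The median over the 10 genes was 0.93, beside 0.01 over the 16839 genes tested. The call rate over all genes was 0% (0 genes at a Benjamini-Hochberg adjusted p under 0.05, 1008 or 5.99% at an unadjusted p under 0.05, and 42 genes by DESeq2, none of them among the 10). Alb had a log2 fold change of 0.92 ± 0.99 (SE), Apoa2 of 1.52 ± 1.12, Apoe of 0.57 ± 0.92 and Apob of 0.25 ± 0.39, with edgeR adjusted p between 0.860 and 0.935 for the 10 genes. Serpina1c, at 0.89 ± 0.63, was the 1 gene of 10 with no overlap between the groups in TMM-scaled CPM, where 7.41% of all genes were higher and 6.36% lower without overlap. Without low replicate 3, 8 of the 10 log2 fold changes were negative, Alb at -0.70 and Apoe at -0.69, and the median was -0.37.

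At the medium dose all 10 log2 fold changes were again positive and none passed in edgeR, with adjusted p of 0.997 for each. Their median was 0.94 beside 0.02 over all genes, of which 0% passed (940 or 5.58% at an unadjusted p under 0.05, and 89 by DESeq2, none of them among the 10). Apoc3 had 1.33 ± 1.07, Apoa2 1.21 ± 1.11, Ttr 1.05 ± 1.04, Alb 0.88 ± 0.99 and Apob 0.05 ± 0.39 on the log2 scale. In TMM-scaled CPM each of the 10 genes overlapped the controls, beside 7.61% of all genes that were higher and 6.38% that were lower without overlap. Without medium replicate 1, 6 of the 10 fold changes were negative and the median was -0.03.

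At the high dose all 10 log2 fold changes were positive, and each was numerically the largest of the 3 doses. Differences between doses were not tested. Ttr had a log2 fold change of 2.60 ± 1.09, Apoa2 of 2.56 ± 1.16, Apoc3 of 2.35 ± 1.11, Apoa1 of 1.98 ± 0.96, Apoh of 1.94 ± 0.83, Alb of 1.78 ± 1.01, Apoe of 1.78 ± 0.95, Apoc1 of 1.69 ± 0.97, Serpina1c of 1.34 ± 0.63 and Apob of 0.26 ± 0.39. None passed: edgeR adjusted p ran from 0.383 to 0.791, and 0% of all genes were called (2152 or 12.8% at an unadjusted p under 0.05, and 172 by DESeq2, none of them among the 10). Ttr, Apoh and Apoa2 were the 3 genes of 10 with an unadjusted edgeR p under 0.05, at 0.0332, 0.0378 and 0.0463. The median over the 10 genes was 1.86, beside 0.03 over all genes. Each of the 10 genes overlapped the controls in TMM-scaled CPM, where 6.47% of all genes were higher and 6.52% lower without overlap. High replicate 2 was below the highest control liver for each gene, and for Apob high replicate 3 was as well. The median was 1.09 without high replicate 1 and 2.35 without high replicate 2. The 3 comparisons share their control livers and are not independent.

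A slope on dose over all 12 livers, printed per 100 mg/kg, was 2.24 ± 0.93 for Ttr, 2.17 ± 1.01 for Apoa2, 1.76 ± 0.72 for Apoh, 1.69 ± 0.78 for Apoe, 1.59 ± 0.87 for Alb and 0.18 ± 0.35 for Apob on the log2 scale. None of the 10 genes passed (edgeR adjusted p between 0.434 and 0.849), and 4 had an unadjusted p under 0.05. Over all genes 0% were called (1853 at an unadjusted p under 0.05, and 64 by DESeq2). The median slope over the 10 genes was 1.69, and 0.94 without high replicate 1.

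With the mitochondrial share as a covariate, these fold changes did not keep their sign. At the low dose 6 were above 0 and 4 below, with a median of 0.07. At the medium dose 2 were above and 8 below, with a median of -0.11, and at the high dose all 10 were below 0, with a median of -0.41 and with Alb at -0.64 and Ttr at -0.33. None passed, and 0% of all genes were called by edgeR at any dose (1765, 1630 and 1367 at an unadjusted p under 0.05 at the low, medium and high dose). DESeq2 was not run with this covariate.

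**Figure D2:**
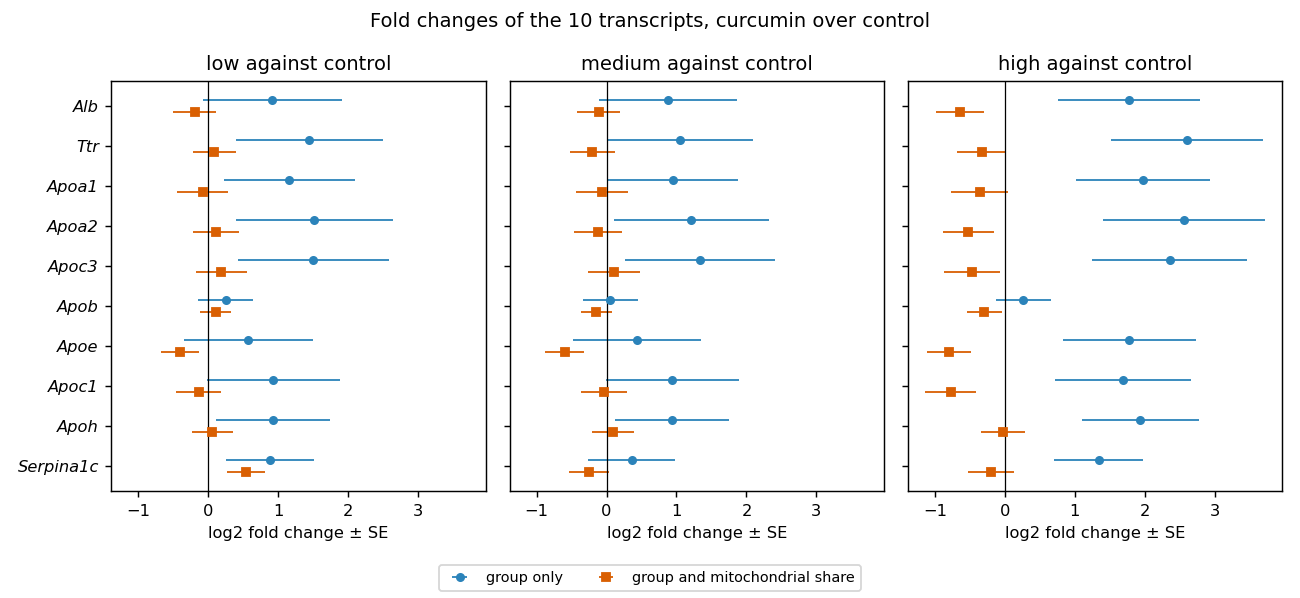
Log2 fold change of each dose over control for the 10 genes, from edgeR with the groups alone (circles) and with the mitochondrial share added (squares); bars are standard errors. With groups alone all 30 values are above 0, and with the share added the high-dose values lie between -0.80 and -0.02.

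The 10 genes were then set against the share itself, in a fit across 16359 genes on the counts without mitochondrial genes and copies, scaled to the remaining total so that the share does not enter the scaling. Of the 10 genes, 9 were lower at a higher mitochondrial share and Apob did not pass, where 42.9% of all genes were called and 9.14% were called lower. Per 10 percentage points of share, the log2 slope was -1.18 ± 0.10 for Apoa2 (SE, edgeR adjusted p = 5.14e-06), -1.17 ± 0.12 for Apoc3 (1.01e-05) and -1.11 ± 0.09 for Ttr (4.93e-06). These 3 stood at ranks 25, 26 and 33 among all genes, counted from the steepest negative slope. Alb, at -0.95 ± 0.12 (adjusted p = 2.55e-05), was at rank 81 and Apoa1, at -0.95 ± 0.12 (2.55e-05), at rank 83.

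Apoc1 followed with a slope of -0.91 ± 0.12 (edgeR adjusted p = 3.92e-05), Apoe with -0.85 ± 0.09 (1.64e-05) and Apoh with -0.81 ± 0.08 (7.75e-06). Serpina1c, with -0.45 ± 0.09 (adjusted p = 0.00121), was at rank 864. The Apob slope was -0.05 ± 0.07 (adjusted p = 0.585). As folds, 10 points of share went with levels 1.37 to 2.26 times lower in the 9 genes. The median slope of all genes was 0.20 on this scale. With TMM scaling that median was 0.01, the split of calls over all genes changed to 2556 higher and 3039 lower, against 5527 higher and 1495 lower here, and Apob passed as well, at -0.24 (adjusted p = 0.0147).

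With the group as a covariate, which compares mice within their own groups, the same 9 of 10 genes passed, all lower. Over all, 6082 of 16359 genes were called, 1316 lower and 4766 higher. Without high replicates 1 and 3, the libraries farthest from the median share, 8 of the 10 passed, Serpina1c being at -0.43 with an edgeR adjusted p of 0.0828. Over all, 2954 of 17423 genes were called in that fit, 736 lower and 2218 higher. Without high replicate 1 alone, 4438 of 16869 were, 1069 lower and 3369 higher. What lies behind the relation between share and level was not tested.

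**Figure D3:**
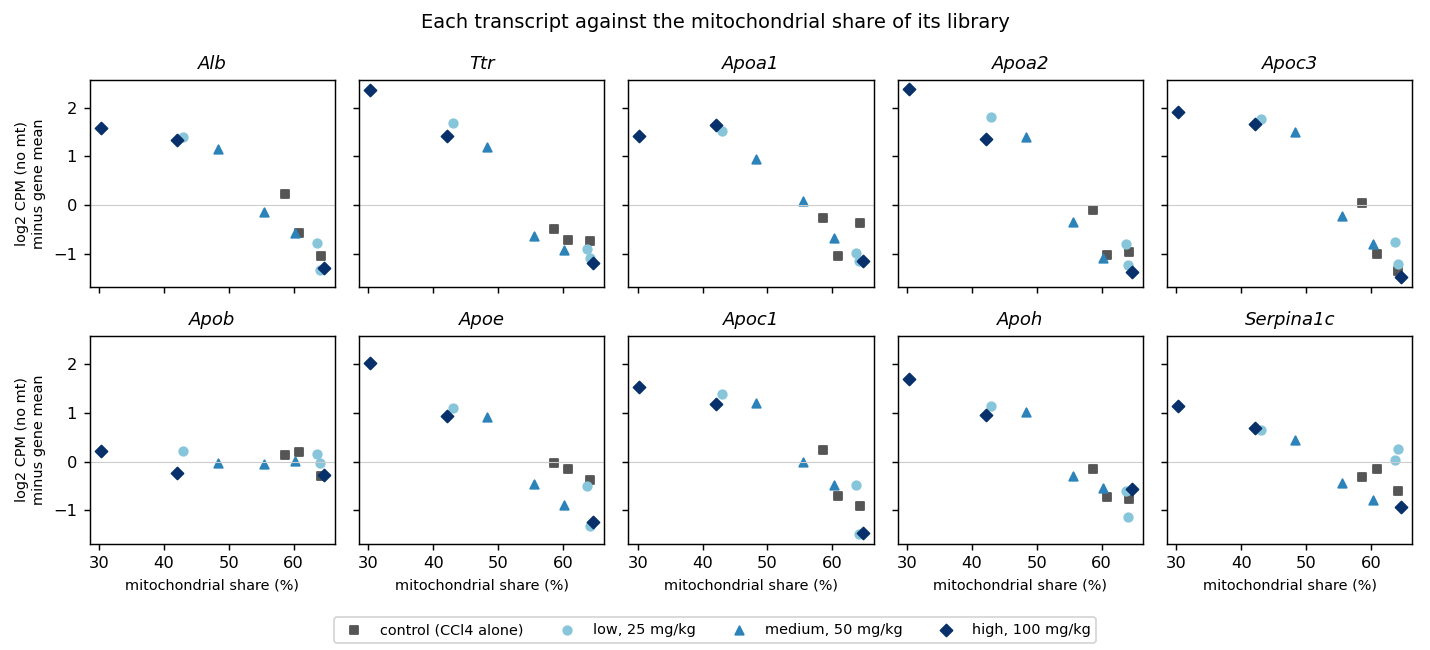
Log2 CPM without mitochondrial counts, less the gene's mean over the 12 livers, against the mitochondrial share of all counts in percent, 1 panel per gene and 1 point per liver, with a symbol for each group. In 9 panels the points descend between shares of 30.3% and 64.7%, and in the Apob panel they stay near 0.

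Ratios between genes within a library need no scaling between libraries. The closest pair was Alb and Apoc1, whose ratio spanned 1.39-fold over the 12 livers, from 6.98 to 9.71. Ttr to Apoa2 spanned 1.58-fold, Apoc3 to Apoa2 1.72-fold, Alb to Apoc3 1.74-fold and Apoc1 to Apoe, both on chromosome 7, 2.01-fold. Apoa1 to Apoc3, both on chromosome 9, spanned 2.89-fold. Over the 28 pairs that leave out Apob and Serpina1c, spans were 1.39-fold to 3.25-fold. In the 8 pairs of Serpina1c with these genes they were 3.92-fold to 6.53-fold, and in the 9 pairs with Apob 3.35-fold to 10.4-fold, the widest being Apoa2 to Apob.

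Apob counts per Alb count were 0.0491, 0.0901 and 0.0884 in control livers, 0.101, 0.129 and 0.0231 in low-dose livers, 0.0230, 0.0556 and 0.0795 in medium-dose livers and 0.0205, 0.106 and 0.0177 in high-dose livers. The span was 7.28-fold. The groups overlapped at each dose, and the 4 livers with the lowest ratio were the 4 with the lowest mitochondrial share. Since both counts come from 1 library, this contrast does not depend on any library total.

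**Figure D4:**
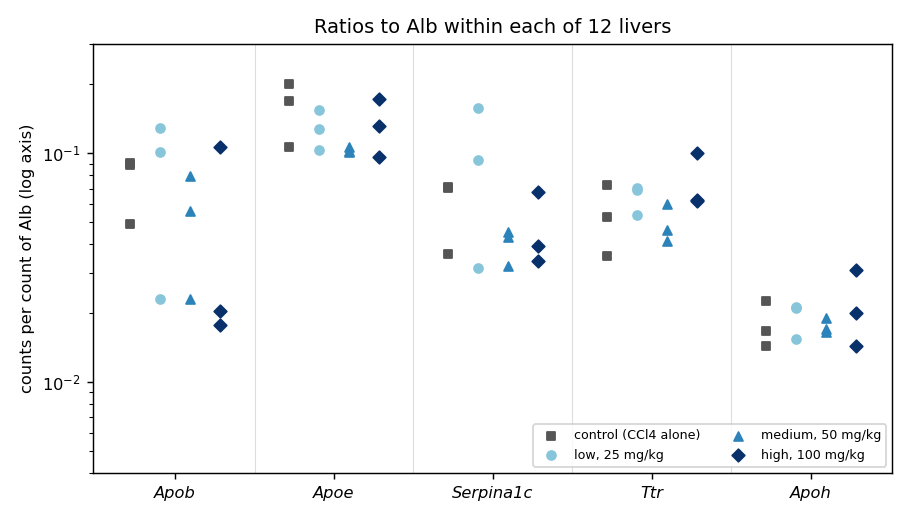
Counts of Apob, Apoe, Serpina1c, Ttr and Apoh per count of Alb within each of the 12 livers (log axis), 1 point per liver, by group from control to high dose. Apob per Alb runs from 0.0177 to 0.129, with 1 low-dose, 1 medium-dose and 2 high-dose livers at the bottom.

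Apob has the longest transcript of the 10, 13934 bases in the annotation, where the others have 518 (Apoa2) to 2034 (Alb). The slope on the share was therefore tabulated by transcript length, with bins chosen after the values were seen and with no test. It covered the 11904 protein-coding genes with an annotated principal transcript and an average log2 CPM of at least 1. Genes under 750 bases (298) had a median log2 slope of -0.27 per 10 points and 50.7% of them were called lower. The median was 0.02 with 24.9% called lower from 750 bases (1526 genes), 0.19 with 11.3% from 1500 (4171 genes), 0.22 with 5.15% from 3000 (4467 genes) and 0.24 with 2.01% from 6000 bases (1442 genes). Apoa2, Apoc1 and Apoc3 fall in the shortest bin and Apob in the longest, and all 10 genes had a slope below the lower quartile of their own bin, which was -0.53, -0.24, -0.03, 0.04 and 0.08 from the shortest to the longest. Serpina1c, at 1361 bases, had a slope of -0.45, and Apoe, at 1408 bases, of -0.85, but reads of Serpina1c cannot be fully assigned among its copies. The part of transcript length in the result was not tested.

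**Figure D5:**
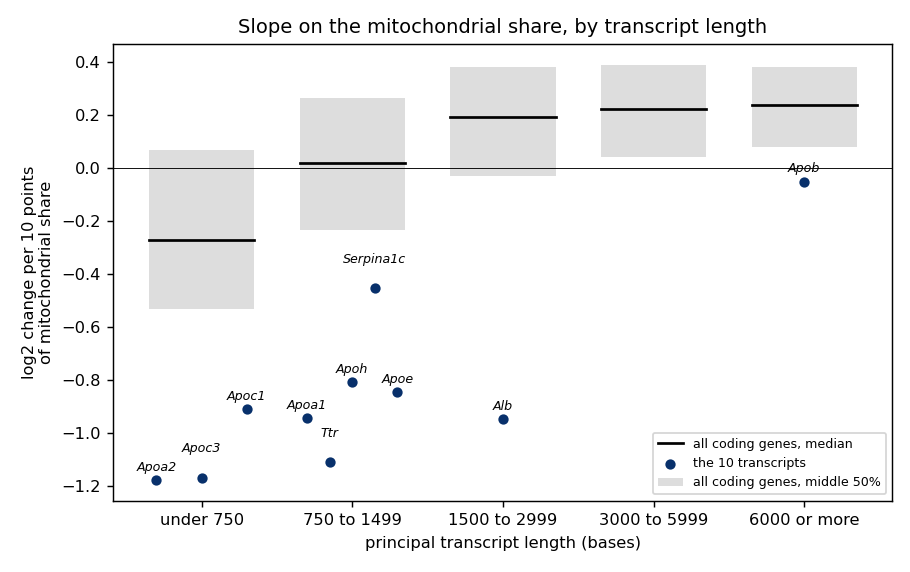
Log2 slope per 10 percentage points of mitochondrial share in 5 classes of transcript length in bases. Black lines are medians over the protein-coding genes with an annotated principal transcript and an average log2 CPM of at least 1. Grey boxes are their middle 50%, and points are the 10 genes, spread sideways within a class for legibility only. All 10 genes lie below the grey box of their class, Apoa2 at -1.18 under 750 bases and Apob at -0.05 at 6000 bases or more.

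Related genes were counted in the same fits, from lists chosen with earlier results of these data known. They are to be read beside the 9.14% of all genes called lower and 33.8% called higher. Of 13 other apolipoproteins tested, 5 were called lower at a higher share and 3 higher. Apof, an inhibitor of cholesteryl ester transfer, had a slope of -0.95, Apoc4 of -0.89 and Apoa4 of -0.77. Of 36 other plasma carriers and inhibitors, 22 were lower and 3 higher, including Selenop, the selenium carrier, at -1.05, Fetub at -0.93 and Serpind1, the thrombin inhibitor heparin cofactor, at -0.49. All 7 tested paralogs of the Serpina1 and Serpina3 families had a negative slope and 5 were called, with Serpina1b at -0.57, Serpina1a at -0.47 and Serpina1d at -0.43, close to Serpina1c, which shares sequence with them.

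Of 29 endoplasmic reticulum genes that receive and process secreted proteins, 14 were called lower, 0 higher and 15 did not pass. Among the 14 were the translocon subunits Sec61g at -0.68 and Sec61b at -0.63 and the disulfide isomerase P4hb at -0.62. Of 26 genes of lipoprotein assembly, remodelling and uptake, 6 were called lower and 11 higher. Surf4, the cargo receptor that carries lipoproteins out of the endoplasmic reticulum, was at -0.52, while Soat2, which esterifies cholesterol, was at 0.76 and Abcg5, which exports sterol into bile, at 0.61. Of 26 hepatocyte transcription factors 0 were called lower and 12 higher, with the bile acid receptor Nr1h4 at 0.61, Tef at 0.57 and Nr5a2 at 0.39. All 5 nuclear-retained RNAs were called higher, Kcnq1ot1 at 0.84, Meg3 at 0.80 and Malat1 at 0.43. With TMM scaling, called lower and higher became 8 and 3 for the assembly genes, 3 and 5 for the transcription factors 25 and 0 for the endoplasmic reticulum genes, 0 and 3 for the nuclear-retained RNAs, 7 and 2 for the other apolipoproteins, 28 and 2 for the plasma carriers and 7 and 0 for the Serpina paralogs, where 18.6% of all genes were called lower and 15.6% higher. The balance of the assembly genes and that of the transcription factors thus depend on the scaling. With TMM their median slopes went from 0.16 to -0.03 and from 0.17 to -0.02. None of these lists had a gene called by edgeR at any dose.

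Markers of hepatocytes other than secreted proteins were summed for comparison. The sum of 10 such markers (Cps1, Ass1, Arg1, Tat, Tdo2, Hpd, Fah, Cyp2e1, Cyp3a11 and Hal) was 13812 to 16941 CPM without mitochondrial counts in the 3 high-dose livers, 13492 to 16062 CPM in the medium-dose livers and 9625 to 13442 CPM in the low-dose livers, against 9655 to 11134.5 CPM in control livers. The sum of the 10 plasma-protein genes ranged from 25073 to 184749 CPM in the same high-dose livers, with Alb the main part. Single markers ranged widely too, Cyp3a11 between 345 and 2338 CPM and Ass1 between 495 and 2298 CPM over the 12 livers. On the share, 2 of the 10 markers were called lower and 0 higher, Cyp3a11 at -0.81 and Arg1 at -0.34, while Ass1 at -0.32 did not pass (edgeR adjusted p = 0.0621). With TMM scaling 5 of the 10 markers were called lower and 0 higher. At the high dose 9 of the 10 markers had a positive fold change, the median was 0.87, and none passed.

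Sums of the markers of other cell types stood beside these levels as follows, in non-mitochondrial CPM. The 4 B cell markers summed to 13.5 to 29.5 CPM in high-dose livers, against 46.4 to 125 CPM in control livers, and the 6 neutrophil markers to 21.4 to 28.6 CPM, against 46.2 to 201 CPM. In low-dose and medium-dose livers, B cell sums were 14.2 to 46.7 CPM and 25.6 to 45.9 CPM. Neutrophil sums there were 21.4 to 34.2 CPM and 16.9 to 42.2 CPM. For the 5 erythroid genes the sums were 463 to 975 CPM in high-dose livers, against 828 to 7028 CPM in control livers, and for the 10 Kupffer cell and macrophage markers 296 to 389 CPM, against 349 to 879 CPM. Erythroid sums were 915 to 1688 CPM in low-dose and 451 to 6678 CPM in medium-dose livers. Kupffer cell and macrophage sums were 197 to 359 CPM in low-dose and 224 to 328 CPM in medium-dose livers. The 8 stellate cell markers summed to 215 to 617 CPM in high-dose livers, against 208 to 312 CPM in control livers, with Acta2 at 0 in 1 of the 12 libraries. Stellate cell sums were 147 to 277 CPM in low-dose and 161 to 257 CPM in medium-dose livers. Sinusoidal endothelium (7 markers) was at 152 to 169 CPM in high-dose livers, against 125 to 244 CPM in control livers, cholangiocytes (6) at 29.5 to 121 CPM, against 48.9 to 61.1 CPM, and T cells (5) at 8.69 to 11.6 CPM, against 8.86 to 27.9 CPM. In low-dose and medium-dose livers, endothelial sums were 123 to 225 CPM and 178 to 197 CPM. Cholangiocyte sums there were 25.9 to 68.6 CPM and 38.1 to 50.5 CPM, and T cell sums 6.65 to 21.8 CPM and 10.9 to 12.5 CPM. Among the neutrophil markers Camp was at 0 in 10 libraries and Ngp in 8. On the share, 4 of 8 stellate cell and 2 of 5 cholangiocyte markers tested were called lower and 0 higher. Called lower and higher were 0 and 3 of 4 B cell and 0 and 2 of 5 erythroid markers. They were 1 and 2 of 10 Kupffer cell and macrophage and 1 and 1 of 7 endothelial markers. For T cells they were 0 and 1 of 5, and for neutrophils 0 and 0 of 4. Over all genes 9.14% were called lower and 33.8% higher. With TMM scaling 6 stellate cell, 3 cholangiocyte, 3 endothelial and 1 Kupffer cell and macrophage markers were called lower, and 2 B cell markers higher. The part of these cell types in the levels of the 10 genes was not tested.

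Likeness to Alb over the 12 livers was ranked by Pearson's r of log2 non-mitochondrial CPM among 11572 genes, with the 10 genes left out of the ranking. The genes most like Alb were then Fetub (0.994), the respiratory chain and ATP synthase subunits Cox6b1 (0.991), Atp5j (0.990) and Uqcrb (0.988), and Txn1 (0.989). Of the 10 genes themselves, Apoc1 had an r of 0.991 and Apoc3 of 0.990 with Alb. For Apoe the genes outside the 10 were Ptms (0.974), Acp5 (0.972), Gapdh (0.970), Serpinc1 (0.968) and Mettl7b (0.967). These points share their libraries and depths, and the values describe the 12 livers only. For Apob, looked up after its values were seen, they were Pgrmc1 (0.856), Znrf2 (0.851), Nadk2 (0.845), Hmgn5 (0.838) and Dnaja2 (0.838).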

How the data were processed

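The authors deposited 1 table of raw counts, whole numbers per Ensembl gene ID with 1 column for each of the 12 livers. Per the labels' protocols, RNA was extracted with TRIzol and libraries made with a Hieff kit. Per the submitters' processing notes, fastp 0.23.4, STAR 2.7.10b and StringTie 2.2.1 were used with the mm39 build. Which step counted reads, and how strand and multiply matching reads were treated, is not described in the sources used here. Library totals were 36015134 to 70376474 counts.

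Symbols and transcript lengths came from GENCODE M21 (GRCm38), which named 52073 of 56923 IDs (91.5%); IDs without a symbol held 0.812% of counts. Since the build differs from mm39, the only coordinates given are those of the RefSeq promoter windows, on GRCm38.p6. Nuclear copies of the 37 mitochondrial genes were found by BLAST+ 2.17.0 when 80% or more of the transcript matched with 95% identity or better.

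Counts were tested in R 4.3.3 with edgeR 4.0.16 (filterByExpr, TMM, robust quasi-likelihood fit of all 12 libraries, Benjamini-Hochberg over all 16839 genes, threshold 0.05). The slope on the mitochondrial share used 16359 genes without mitochondrial genes and copies, library totals and no TMM. Simulated counts were put through edgeR only for the low dose against control and for the slope on the share, both scaled to library totals. The TMM fits, the slope on dose, the share as a covariate and DESeq2 were not simulated. DESeq2 1.42.0, other scalings, no filter, the share as a covariate, the replicate number as a block and leaving out each library were alternatives. Replicates of a group differed far beyond counting noise (lowest chi-square of a pair 38.5 per degree of freedom), so none was a second copy.

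The members and gene lists were chosen with earlier results of these data known. Named besides the 10 genes are the Serpina1 paralogs, the 5 genes most like Alb and Apoe by Pearson's r, and up to 3 genes per list with the smallest p. A few genes of these lists are not reported here and were left out of the lists' counts and sums.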

Additional observations from a re-analysis of the deposited data

How the results depend on the processing

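All log2 fold changes of the 10 genes over control rest on 3 mice a group, and no dose comparison called any of them under any alternative. Adding the mitochondrial share as a covariate turned 32 of the 40 values negative. At the low dose these were Alb at -0.19, Apoa1 at -0.077, Apoc1 at -0.13 and Apoe at -0.40. At the medium dose they were Alb at -0.11, Ttr at -0.20, Apoa1 at -0.064, Apoa2 at -0.12, Apob at -0.15, Apoc1 at -0.036, Apoe at -0.60 and Serpina1c at -0.25. At the high dose they were Alb at -0.64, Ttr at -0.33, Apoa1 at -0.36, Apoa2 at -0.52, Apob at -0.29, Apoc1 at -0.78, Apoc3 at -0.47, Apoe at -0.80, Apoh at -0.024 and Serpina1c at -0.20 (median -0.41). The slopes on dose became -0.61 for Alb, -0.40 for Ttr, -0.35 for Apoa1, -0.60 for Apoa2, -0.36 for Apob, -0.75 for Apoc1, -0.55 for Apoc3, -0.76 for Apoe, -0.037 for Apoh and -0.42 for Serpina1c (median -0.48). The cause was not tested. Scaling to totals without mitochondrial counts made Apob -0.054 at the medium dose, -0.11 at the high dose and -0.15 on dose, and moved the median of all genes to -0.14, -0.08 and -0.25 at the low, medium and high dose; with mitochondrial counts in the totals these medians were 0.11, 0.47 and 0.71, against which the 10 genes' medians were 1.49, 1.45 and 2.81. DESeq2 called 42, 89 and 172 genes at the 3 doses and 64 on dose, none of the 10 among them.

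Leaving out 1 library at a time gave, at the low dose, Alb between -0.70 and 1.44, Apoa1 between -0.57 and 1.59, Apoa2 between -0.39 and 1.98, Apoc1 between -0.58 and 1.46, Apoc3 between -0.35 and 2.12, Apoe between -0.69 and 0.99, Apoh between -0.35 and 1.33 and Ttr between -0.35 and 1.88, and 0 to 2 genes called. At the medium dose it gave Alb between -0.011 and 1.40, Apoa2 between -0.077 and 1.66, Apob between -0.081 and 0.18, Apoe between -0.50 and 0.79, Serpina1c between -0.26 and 0.64 and Ttr between -0.15 and 1.44. At the high dose Apob lay between -0.17 and 0.48, and on dose between -0.23 and 0.40. The negative values came without low replicate 3, medium replicate 1 and high replicate 1, and for Apob at the medium dose also without control replicate 3.

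On the mitochondrial share, leaving out 1 library called 4438 to 7283 genes, against 7022 with all, and leaving out high replicates 1 and 3 called 2954. Labels number the mice 1 to 3 in each group. Deviations of same-numbered mice from their group means correlated between -0.43 and 0.61 over 18 pairs (median -0.07). Those of other pairs correlated between -0.66 and 0.53 over 36 pairs (median 0.01). Ranges this wide cannot decide whether the numbers pair the mice. The replicate block gave medians of 0.83, 0.77 and 1.45 at the 3 doses and 1.32 on dose. It called 0 genes at any dose and 5431 on the share, and changed no call of the 10 genes.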
